A study of Monascus purpureus with 6 samples.

Results

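Velvet regulators are fungal transcription regulators that share 1 DNA-binding fold, the velvet domain. They were taken here as the unigenes of *Monascus purpureus* whose Pfam annotation names the velvet factor or whose best protein hit in the NR database is called velvet, with a mean level of at least 0.1 FPKM. A unigene is a transcript assembled from the reads without a genome, and FPKM is the number of fragments per kilobase of unigene and 1000000 mapped fragments. Of 24261 unigenes, 6 met the rule, and they belonged to 4 assembled genes with 3 distinct NR hits. All 6 carried the Pfam velvet factor, 1 was also named velvet protein by its NR hit, and none had a KEGG entry. The level threshold removed no unigene, since the lowest of the 6 had a mean of 1.40 FPKM.

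RNA of *M. purpureus* MP2022, a wild isolate labelled as wild type, was sequenced de novo on the DNBSEQ platform. The taurine group held 3 libraries of mycelia that had 4 g/L taurine in their fermentation medium for 1 d, and the control held 3 libraries of the same age from that medium with 0 g/L taurine. Both groups shared strain, medium and time, and the strain carried no engineered allele in the labels. *M. purpureus* makes *Monascus* azaphilone pigments and the mycotoxin citrinin, which are secondary metabolites, and the study asked what taurine changed at the level of transcription when ethanol and pigments were co-produced.

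In *Aspergillus*, where the family is best known, the members are VeA, VelB, VosA and VelC. VelB and VeA enter the nucleus together and bind the methyltransferase LaeA there, and this complex links light and development to secondary metabolism, while VosA acts with VelB in spores, where it is needed for viability and trehalose storage and holds back early conidiation genes. How the *M. purpureus* proteins divide these roles is not given by the annotation used here.

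No velvet unigene passed the test for a change with taurine. The most abundant one, the velvet protein DN286, averaged 93.9 FPKM with taurine and 107 FPKM in the control, and the unigenes with a VosA hit summed to 30.7 and 30.8 FPKM. The largest difference was that of a minor unigene, DN1359, which averaged 5.15 FPKM with taurine and 3.08 FPKM in the control, with overlapping groups. By limma on log2(FPKM + 1), 0 of the 6 velvet unigenes passed an adjusted p of 0.05, beside 0.0393% of the 20380 unigenes tested, and 0 of the 6 had an unadjusted p under 0.05, beside 2.66%. With 6 members and so low a background, a count of 0 says little about velvet genes in particular. The taurine and control libraries overlapped for all 6, whereas they did not overlap for 6.41% of all tested unigenes. Of the 4 velvet assembled genes, with isoforms summed, 0 passed the adjusted p of 0.05 (0.0471% of the 16971 genes tested), 0 had an unadjusted p under 0.05 (2.46%) and 0 had groups that did not overlap (6.11%). Fold changes below are taurine minus control on the log2(FPKM + 1) scale, which understates changes of low unigenes.

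**Figure D1:**
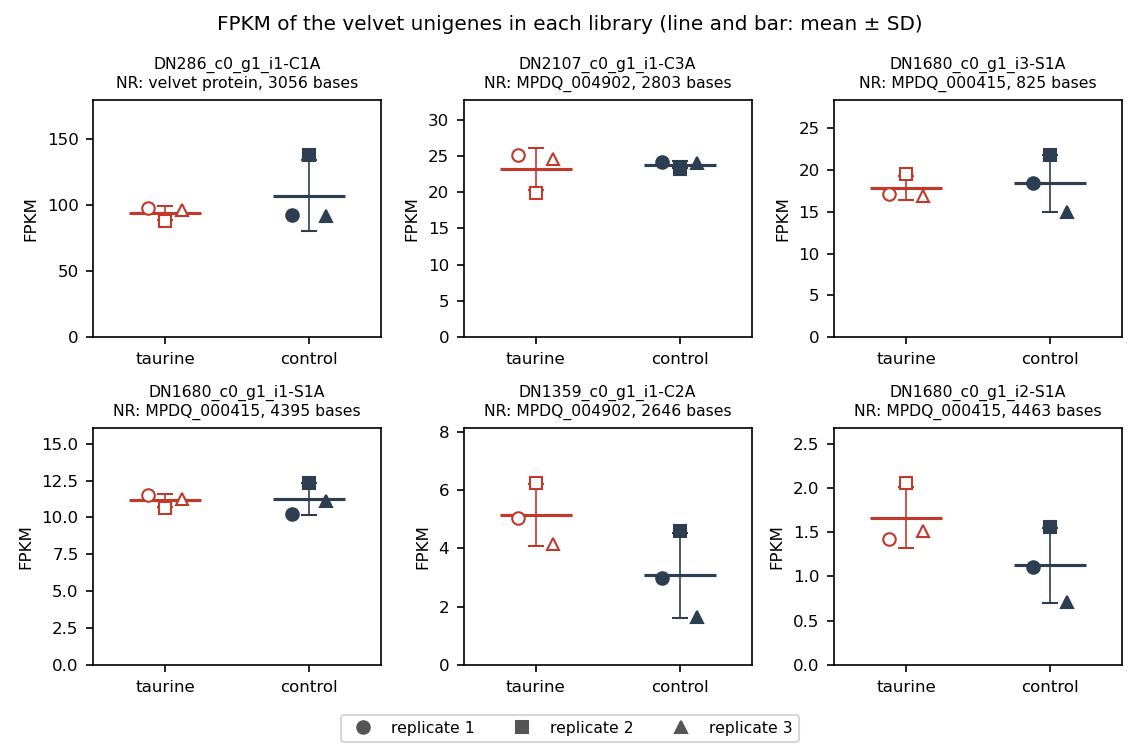
FPKM (y axis, from 0, a scale of its own in each panel) of the 6 velvet unigenes in the 3 taurine and the 3 control libraries, with the marker giving the replicate and the line and bar the mean ± SD. The groups overlap in every panel, and control replicate 2 is the highest library for 3 of the 6 unigenes.

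Estimated from the steps between low values, each library held 18500000 to 19100000 fragments, and 17168 to 17497 unigenes were above 0. Control replicate 2 stood apart, with a mean correlation of 0.910 with the other libraries, against 0.928 to 0.933 for the remaining ones. It was the highest library for 28.3% of all tested unigenes. The study's methods state that assays were run in triplicate, without saying whether the 3 libraries of a group came from separate cultures, so p-values measure only the spread between these libraries. Groups follow the column names of the deposited table. The direction of every difference rests on those names, because fold changes in the study's supplementary tables run the other way.

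The velvet protein was the most abundant member of the family. The unigene TRINITY_DN286_c0_g1_i1-C1A, of 3056 bases, had 97.74, 87.86 and 96.09 FPKM with taurine, against 92.03, 137.81 and 91.37 FPKM in the control. Control replicate 2 was the one high library, and the taurine values lay on both sides of the other control values. The log2 fold change was -0.16 (SE 0.17, 95% interval -0.57 to 0.25, limma adjusted p = 0.999), and an exact permutation test of the 6 libraries gave a two-sided p of 0.8, where the smallest possible is 0.1. Without control replicate 2 the value was 0.03. The mean of 100.5 FPKM was above that of 94.2% of all tested unigenes. An estimated 4590 to 6996 fragments stood behind each value, so counting error was small beside the differences between libraries.

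The gene with the VosA hit gave 3 of the 6 unigenes. All isoforms of TRINITY_DN1680_c0_g1-S1A had the same NR hit, the hypothetical protein MPDQ_000415, and their best nucleotide hit was the *vosA* mRNA of *Aspergillus flavus*. Summed over isoforms, the gene had 30.11, 32.25 and 29.65 FPKM with taurine, against 29.88, 35.73 and 26.81 FPKM in the control. The taurine libraries lay inside the control range. For the sum the log2 fold change was 0.0025 (SE 0.12, 95% interval -0.28 to 0.29, limma adjusted p = 0.999), with an exact permutation p of 0.9. Isoforms share fragments, so the way the authors' tool divided the sum between them is less certain than the sum.

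The short isoform, TRINITY_DN1680_c0_g1_i3-S1A of 825 bases, was the most abundant by FPKM, with 17.17, 19.52 and 16.86 FPKM with taurine, against 18.51, 21.81 and 14.97 FPKM in the control. Its highest and its lowest library were both controls. Its log2 fold change was -0.03 (SE 0.15, limma adjusted p = 0.999). The long isoform i1, TRINITY_DN1680_c0_g1_i1-S1A of 4395 bases, had 11.52, 10.67 and 11.28 FPKM with taurine, against 10.26, 12.36 and 11.13 FPKM in the control. It was the steadiest of the family, with a residual SD above that of only 7.88% of tested unigenes. Its log2 fold change was -0.0081, with a 95% interval of -0.27 to 0.25. It had an estimated 796 to 934 fragments a library, against 147 to 207 for i3, whose higher FPKM is that of a much shorter unigene.

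The other long isoform, TRINITY_DN1680_c0_g1_i2-S1A, is 68 bases longer than i1 and was the scarcest velvet unigene. It had 1.42, 2.06 and 1.51 FPKM with taurine, against 1.11, 1.56 and 0.71 FPKM in the control. Control replicate 2 lay above taurine replicates 1 and 3, so the groups overlapped. Its log2 fold change was 0.34 (SE 0.25, 95% interval -0.28 to 0.95, limma adjusted p = 0.999), with an exact permutation p of 0.3. At an estimated 56 to 162 fragments a library, this was the least deeply measured of the long unigenes. With a pseudocount of 0.1 in place of 1 the value was 0.57, and without control replicate 3 it was 0.19.

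Within the gene, i2 took 4.72%, 6.39% and 5.09% of the FPKM with taurine, against 3.71%, 4.37% and 2.65% in the control. All taurine shares lay above all control shares, a difference of 1.82 percentage points between means of 5.40 ± 0.877 and 3.58 ± 0.867% (SD, n = 3 each, taurine and control). The exact permutation p was 0.1, the smallest that 3 against 3 can give, so the design could not reach 0.05. Of the 3 isoform shares compared, the planned one was that of the most abundant isoform, i3, and the others were added to it. How often isoform shares separate the groups over all genes was not counted. The shares of i3 (58.1 ± 2.07% with taurine, 59.6 ± 3.30% in the control, exact permutation p = 0.6, n = 3 each) and of i1 (36.5 ± 2.93% with taurine, 36.8 ± 4.07% in the control, exact permutation p = 1, n = 3 each) overlapped between the groups. A share of FPKM counts transcripts per length and not fragments, and the division between isoforms is an estimate of the authors' tool. Leaving out single libraries, the difference in the i2 share ran from 1.33 to 2.22 percentage points.

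**Figure D2:**
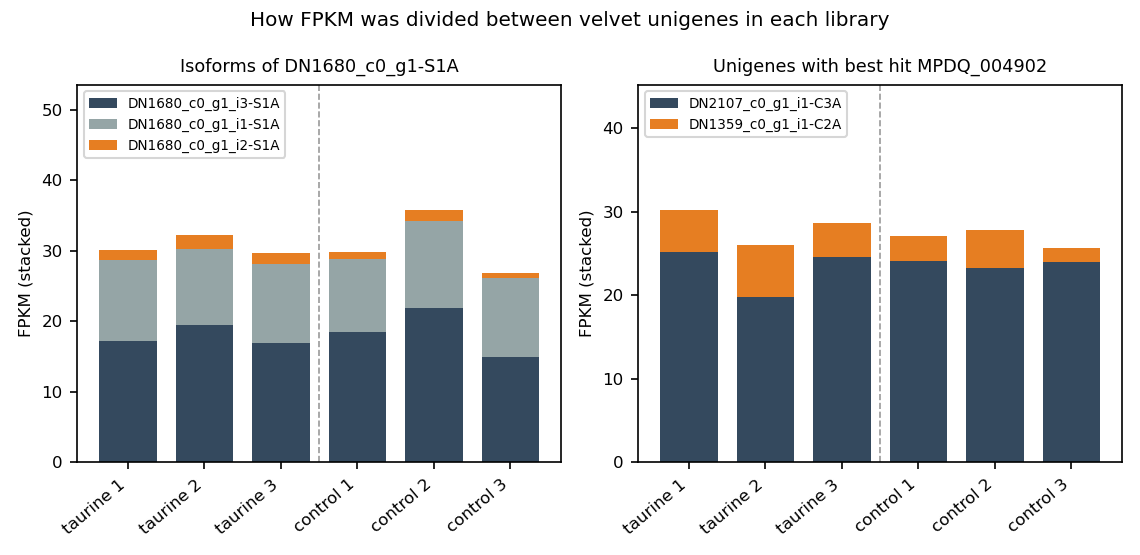
FPKM (y axis, stacked) of the 3 isoforms of DN1680 (left) and of the 2 unigenes with the NR hit MPDQ_004902 (right) in each taurine library and each control library. The summed bars of DN1680 run between 26.81 and 35.73 FPKM and those of MPDQ_004902 between 25.66 and 30.16 FPKM, while the top section differs by a larger factor between libraries than the bar does (2.90 times for i2 and 3.77 times for DN1359, highest over lowest, against 1.33 and 1.18 times for the bars).

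A pair of assembled genes had the hypothetical protein MPDQ_004902 as NR hit, and their Pfam domain is the only evidence here for a velvet protein. TRINITY_DN2107_c0_g1_i1-C3A, of 2803 bases, had 25.12, 19.81 and 24.54 FPKM with taurine, against 24.14, 23.20 and 24.00 FPKM in the control. Taurine replicate 2 was low and the control libraries lay close together. Its log2 fold change was -0.04 (SE 0.11, 95% interval -0.31 to 0.22, limma adjusted p = 0.999), with an exact permutation p of 1.

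TRINITY_DN1359_c0_g1_i1-C2A, 157 bases shorter, varied most of the 6, with 5.04, 6.26 and 4.16 FPKM with taurine, against 2.99, 4.59 and 1.66 FPKM in the control. Only control replicate 2 reached into the taurine range, above taurine replicate 3. The highest library was 3.77 times the lowest, and the ratio of the group means was 1.67. The log2 fold change was 0.64 (SE 0.31, 95% interval -0.09 to 1.38, unadjusted p = 0.0771 and adjusted p = 0.999 by limma), with an exact permutation p of 0.2. Without control replicate 2 it was 0.90 (adjusted p = 0.919 by limma), and without control replicate 3 it was 0.37. An estimated 73 to 279 fragments stood behind a value, so counting alone gives an SD of 11.7% in the shallowest library.

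The identifiers of DN2107 and DN1359 end in the labels of different libraries (C3A and C2A). Unigenes with 1 protein hit may be copies or alleles of 1 gene, separate genes or 1 transcript assembled more than once. These cannot be told apart here, and where sequences are alike, fragments can be assigned to either. Taurine replicate 2 was the lowest library for DN2107 and the highest for DN1359. The sum of both, added after the values were seen, was 30.16, 26.07 and 28.70 FPKM with taurine, against 27.13, 27.79 and 25.66 FPKM in the control. Taurine replicate 2 was below control replicates 1 and 2, and the groups overlapped. Summed in this way, the log2 fold change was 0.07 (SE 0.08, 95% interval -0.13 to 0.27, limma adjusted p = 0.999), with an exact permutation p of 0.4. DN1359 made up 16.7%, 24.0% and 14.5% of that sum with taurine, against 11.0%, 16.5% and 6.47% in the control, shares that overlap through control replicate 2.

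**Figure D3:**
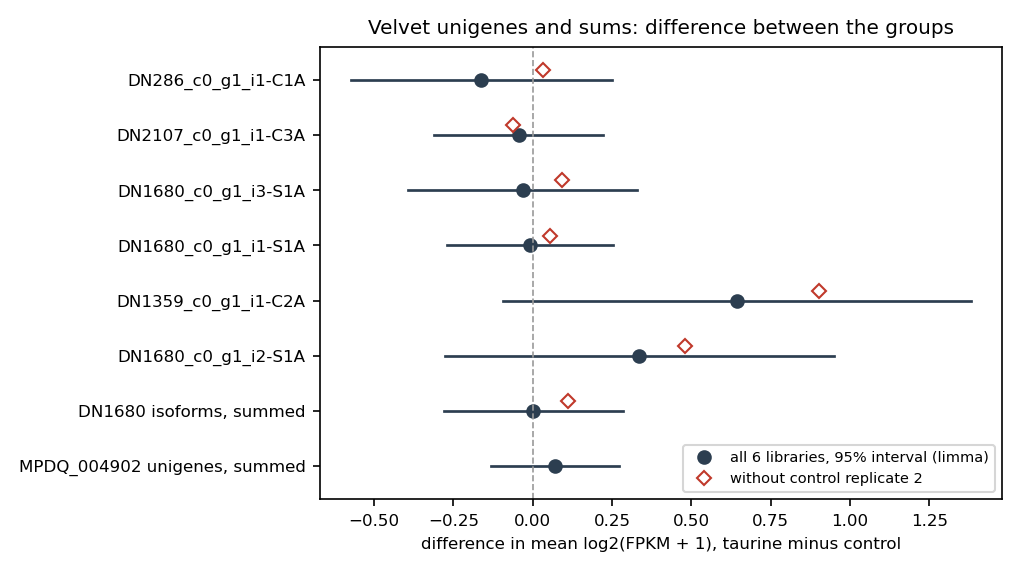
Difference in mean log2(FPKM + 1), taurine minus control (x axis), for each velvet unigene and for the summed isoforms and unigenes, with 95% limma intervals (dots and lines) and, for all but the last, the value without control replicate 2 (diamonds). Every interval includes 0, and without control replicate 2 DN286 lies at 0.03 and DN1359 at 0.90.

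By mean FPKM, which is per length and so can be compared between genes, DN286 was 4.28 times DN2107, and their ranges over the 6 libraries were apart. DN2107 was higher than the short VosA isoform i3 in all 6 libraries, although their ranges overlapped, with a ratio of means of 1.29. The short isoform was 1.62 times i1 by FPKM, though with fewer estimated fragments, and i1 was 2.72 times DN1359, both without overlap. DN1359 was above i2 in all 6 libraries, with ranges that overlapped and a ratio of means of 2.95. The family thus spanned from the 37.6th to the 94.2nd percentile of tested unigenes by level.

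Direction within the family followed no single pattern. With all libraries, 2 velvet unigenes were higher and 4 lower with taurine. Their median log2 fold change was -0.02, against 54.2% higher and a median of 0.02 over all tested unigenes. Without control replicate 2, 5 were higher and 1 was lower, with a median of 0.07 against 0.03 over all. That library was the highest for 3 of the 6 velvet unigenes (DN286, i3 and i1), and control replicate 3 was the lowest for 3 (i3, DN1359 and i2). With isoforms summed control replicate 2 was the highest for 2 of the 4 velvet genes, against 27.9% of all tested genes. In DN286 control replicate 2 was 1.48 times the mean of the other libraries, in i3 1.25 times, and in DN2107 0.986 times.

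Names of velvet partners and of other regulators of development matched 31 tested unigenes, and trehalose and citrinin names added 30 and 19. By limma 0 of these 80 passed an adjusted p of 0.05, beside 0.0393% of all tested unigenes, and 0 had an unadjusted p under 0.05, beside 2.66%, the lowest being 0.0896. Of the 31 partners and regulators, 20 were higher and 11 lower with taurine and the median difference was 0.10 on the log2 scale. Without control replicate 2, 30 of them were tested, 19 higher and 11 lower, and the median was 0.04. LaeA, the methyltransferase of the velvet complex, was TRINITY_DN811_c0_g3_i1-S3A, for which KEGG names a mitochondrial peptidase, so the assembled transcript may hold more than 1 gene. It had 31.43, 30.54 and 37.89 FPKM with taurine, against 30.24, 57.86 and 34.52 FPKM in the control. As in DN286, control replicate 2 alone was high, at 1.76 times the mean of the others. The log2 fold change was -0.24 (SE 0.24, limma adjusted p = 0.999) and without that library 0.04. The velvet protein was above LaeA in all 6 libraries, with a ratio of means of 2.71.

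Importin alpha carries the VelB and VeA pair into the nucleus in *Aspergillus nidulans*. Its unigene TRINITY_DN8597_c0_g1_i1-S2A had 247.92, 233.12 and 250.82 FPKM with taurine, against 238.09, 205.18 and 243.24 FPKM in the control. Here control replicate 2 was the lowest library and the groups overlapped, with a log2 fold change of 0.10 (SE 0.09, limma adjusted p = 0.999). The other unigene of that list, the importin-alpha export receptor, was 0.11 higher on the same scale, also short of the threshold. Control replicate 2 was the lowest library for both, and without it the median of the pair was 0.02, against 0.10 with it. No unigene matched the light receptor names.

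Unigenes matched to names of conidiation regulators were scarce, with 3 of 13 at a mean of 1 FPKM or more. FlbD, a Myb-type activator of conidiation, led them. TRINITY_DN9337_c0_g1_i1-S3A had 25.14, 16.99 and 24.04 FPKM with taurine, against 24.41, 19.92 and 21.45 FPKM in the control. Its highest and its lowest library were both taurine libraries, and the log2 fold change was -0.0064. The unigenes named after BrlA, WetA and FluG had means of 0.478 to 1.62 FPKM. Those named WetA shared the same NR name and had no Pfam domain. Those named FluG domain protein had a Pfam domain of unknown function, a FOXP coiled-coil domain or none. For both, the NR name alone links them to conidiation. Of the 13, 7 were higher and 6 lower with taurine, and the groups did not overlap for 2, against 6.41% of all tested unigenes. The median was 0.14, and without control replicate 2 it was 0.02.

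The sexual development list held unigenes that KEGG names Ste12, a transcription factor that acts downstream of mating and development signals. By NR hit only the isoforms of DN611 were named ste12, and the rest were hypothetical or zinc finger proteins. The most abundant of the list, TRINITY_DN611_c0_g1_i1-S3A, had 105.88, 91.61 and 96.13 FPKM with taurine, against 88.01, 112.44 and 98.15 FPKM in the control. The taurine libraries lay inside the control range, and the log2 fold change was -0.02. Of the 5 unigenes of this list, 1 was higher and 4 were lower, with a median of -0.12. Without control replicate 2 the split was 2 higher and 3 lower, with a median of -0.02.

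The COP9 signalosome is a protein complex that acts on the ubiquitin machinery and is needed for light-dependent development in *A. nidulans*. Its list was the longest whose tested members were all on 1 side. All 10 unigenes, among them the isoforms i1 and i2 of DN1316, were higher with taurine, against 54.2% of all tested unigenes. Their log2 fold changes were 0.06 to 0.28, with a median of 0.11. None had an unadjusted p under 0.05 by limma, and the groups did not overlap for 3 of the 10, against 6.41% of all tested unigenes. Control replicate 2 was the lowest library for 8 of them, against 23.8% of all tested unigenes, and without it 8 were higher and 2 lower, with a median of 0.07. Its most abundant member, the subunit 12 unigene TRINITY_DN9719_c1_g1_i1-S2A, had 59.92, 60.36 and 56.70 FPKM with taurine, against 62.02, 45.34 and 58.51 FPKM in the control. Here the highest and the lowest library were both controls, and the log2 fold change was 0.10 (SE 0.13).

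**Figure D4:**
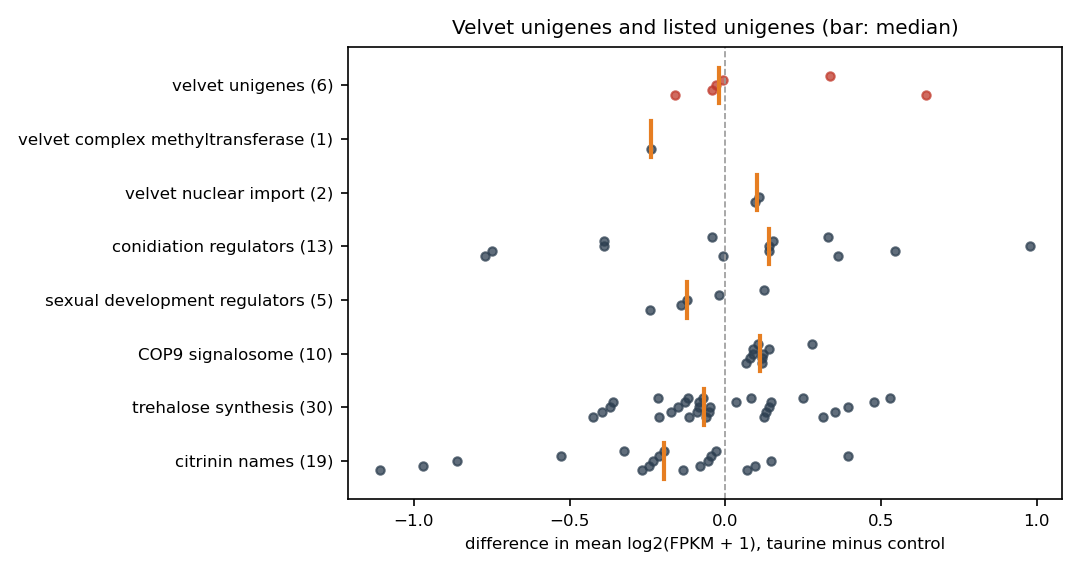
Difference in mean log2(FPKM + 1), taurine minus control (x axis), for the 6 velvet unigenes and each unigene of the other lists (points), with the median of each list as a bar and the number tested in parentheses. The velvet median is -0.02, all 10 COP9 signalosome unigenes lie above 0, and 15 of the 19 unigenes with citrinin names lie below 0.

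The trehalose list was matched on annotation text and concerns the sugar whose storage depends on VosA in *Aspergillus* spores. It also holds trehalose-6-phosphate hydrolases, which break the sugar phosphate down. Other members had Sds3-like, hemerythrin, metallo-beta-lactamase or thioesterase-like Pfam domains, so the counts below do not describe trehalose synthesis alone. Of 30 tested unigenes, 12 were higher and 18 lower with taurine, and the median difference on the log2 scale was -0.07. Control replicate 2 was the highest library for 15 of the 30, and without it 22 were higher and 8 lower, with a median of 0.08. The most abundant, TRINITY_DN801_c0_g1_i3-C1A, a regulatory subunit of the trehalose-6-phosphate synthase complex, had 49.83, 43.07 and 49.81 FPKM with taurine, against 40.55, 74.42 and 48.78 FPKM in the control. Its high library was again control replicate 2, and the log2 fold change was -0.15 (SE 0.22, limma adjusted p = 0.999).

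Secondary metabolite clusters are controlled by velvet complexes in other fungi. A list meant for pigment and citrinin genes held citrinin names in all 19 of its tested unigenes, so it does not describe the pigment cluster. Only 11 of the 19 had a mean of 1 FPKM or more. Those named citrinin polyketide synthase had means of 0.25 to 1.02 FPKM. Several of the 19 were isoforms of the same assembled gene or shared a protein name, so they do not count as separate genes. The list gave 4 higher and 15 lower of 19 tested, with a median log2 fold change of -0.20. Control replicate 2 was the highest library for 14 of the 19. Without it 13 were higher and 6 lower, with a median of 0.03. The most abundant, TRINITY_DN1548_c0_g1_i1-C2A, named as the citrinin cluster transporter mrr1, had 46.83, 46.50 and 46.95 FPKM with taurine, against 50.77, 21.03 and 41.20 FPKM in the control. The taurine values were close together and lay inside the control range, and the log2 fold change was 0.39 (SE 0.30, limma adjusted p = 0.999). Over all tested unigenes 55.9% were higher without control replicate 2. Directions and medians of the lists were taken without that library only, chosen after seeing the data. Its part in them therefore cannot be set against that of other libraries, and what set it apart was not tested.

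Likeness of pattern was measured as the root mean square difference of centred log2(FPKM + 1) over the 6 libraries, among 11784 unigenes of at least 500 bases and a mean of at least 1 FPKM. For the velvet protein DN286 the nearest was TRINITY_DN6877_c0_g1_i1-S1A, with a Pfam T-complex protein 11 domain, at 0.0286. It had 8.17, 7.45 and 7.70 FPKM with taurine, against 7.47, 11.93 and 7.69 FPKM in the control, again with control replicate 2 alone high. The next was TRINITY_DN10537_c0_g1_i1-C1A, the hypothetical protein MPDQ_008102, at 0.0307. For DN2107 the nearest were TRINITY_DN872_c1_g1_i1-S1A, a eukaryotic porin, at 0.0289 and TRINITY_DN6026_c0_g1_i1-S1A, the anaphase promoting complex subunit cdc16, at 0.0300.

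For the short VosA isoform the nearest were TRINITY_DN4136_c0_g2_i1-S3A, a hypothetical protein, at 0.0349 and TRINITY_DN328_c0_g1_i1-C2A, a GINS complex protein of DNA replication, at 0.0391. The measure is not scaled by spread, which was widest in DN1359, so its larger distances cannot be compared with those above. The nearest to DN1359, TRINITY_DN3497_c0_g1_i1-S1A, named carnitine transporter, stood at 0.151. It had 6.21, 5.86 and 4.14 FPKM with taurine, against 4.02, 5.75 and 1.98 FPKM in the control. The next was TRINITY_DN3754_c0_g1_i2-S1A at 0.198. These distances describe 6 libraries that share control replicate 2, and carry no test.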

How the data were processed

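De novo RNA-Seq of 3 taurine and 3 control libraries was analysed. The authors assembled the unigenes and deposited 1 table with lengths, annotation and FPKM, which were used as deposited. The submitters' processing notes name Bowtie2 2.2.5, RSEM 1.2.8 and DESeq, without roles. The authors' fold changes, p-values and q-values between groups and between single libraries were not used. The members and lists were chosen with earlier results of these data known.

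Unigenes with a mean of at least 0.1 FPKM (20380 of 20581 with FPKM listed) were compared on log2(FPKM + 1) by two-sided limma tests (version 3.58.1, R 4.3.3, moderated with a mean-variance trend), and p-values were adjusted by the Benjamini-Hochberg method across the whole table. Isoforms were also summed into 16971 assembled genes, and each level was fitted as a whole. Single values were compared by exact permutation with scipy 1.17.1 under Python 3.11.15. The procedure was tested on simulated data, where the share of false calls was close to nominal but ran above it when values were cut off at 0, as low FPKM are.

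Fragment numbers came from the spacing of small FPKM values in unigenes of 400 to 700 bases that were alone in their gene, where 57.9% to 62.9% of values came within 0.1 of a whole number. They serve to describe precision, and intervals from them cover counting error only. Named unigenes were every member, the most abundant unigene of each list and any listed one with an unadjusted p under 0.05 (none), and the 2 nearest in pattern for the most abundant unigene of each velvet gene. No pairing of libraries by replicate number was seen over all tested unigenes, where deviations from the group means correlated at -0.02, -0.03 and -0.0085. Alternatives were other pseudocounts, level thresholds and scalings, quality weights, a replicate block, summing, and leaving out each library. The reference table of gene names, of another *M. purpureus* assembly, matched no unigene.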

Additional observations from a re-analysis of the deposited data

How the results depend on the processing

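No velvet unigene, velvet assembled gene or listed regulator passed an adjusted p of 0.05 by limma in any of the 14 alternatives, under which 0 to 16 of all tested unigenes passed (8 in the values as reported). The median velvet log2 fold change ran between -0.045 and 0.093 over all alternatives, and the share difference of the short isoform i3 between -3.36 and -0.301 percentage points when single libraries were left out. Of 110 alternative log2 fold changes of single velvet unigenes and of the DN1680 sum, 19 changed sign, with values between -0.090 and 0.16. When each library was left out in turn, DN286 ran from -0.26 to 0.032, DN2107 from -0.10 to 0.060, i3 from -0.17 to 0.092, i1 from -0.067 to 0.056, and the DN1680 sum from -0.090 to 0.11. Leaving out control replicate 2 turned DN286, i3 and i1, taurine replicate 2 turned DN2107, i1 (0.021) and the DN1680 sum (-0.033), taurine replicate 3 turned i3 (0.0062), and control replicates 1 and 3 turned the DN1680 sum (-0.014 and -0.090). With quality weights DN286 was 0.021, i3 0.16 and i1 0.016. The DN1680 sum was -0.011 when rescaled to TPM and -0.035 after quantile normalization. In the summing alternatives a sum stood in for a unigene. For i3 and i1 this was the DN1680 sum at 0.0025, and for DN2107 its sum with DN1359 at 0.071. These count among the 19, although a sum is another quantity than the unigene it replaced. The cause of the other sign changes was not tested. DN1359 ran from 0.37 to 0.90 and i2 from 0.19 to 0.48 when single libraries were left out. With quality weights DN1359 was 1.05, and its adjusted p by limma was 0.268 to 0.999 over its alternatives. Among velvet unigenes an unadjusted p under 0.05 by limma came up in 3 alternatives. These were quality weights, for DN1359 and i2 (at 0.55), and, for DN1359, leaving out control replicate 2 and the replicate block. Of the listed unigenes, 2 had such a p with quality weights. With the replicate block, and without control replicate 1, 2 or 3, 1 listed unigene had it in each. With the replicate block 0 velvet unigenes passed and 0 of all unigenes passed, against 8 without it. No pairing by replicate number was seen over all tested unigenes, and a weaker one cannot be told from 3 libraries a group. Leaving out single libraries, the share difference of i1 ran from -1.59 to 1.998 percentage points. Summing by protein, leaving out libraries for the isoform shares, and the list values without control replicate 2 were chosen after seeing the data. Depth limits DN1359 and i2, which had as few as 73 and 56 estimated fragments.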
